A study of Mus musculus with 115 samples.

Results

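The insulin-like growth factor system was followed through 10 genes of the 45699 in the table of a mouse prostate cancer cross: the ligands Igf1 and Igf2, the noncoding RNA H19, the receptors Igf1r and Igf2r, and the binding proteins Igfbp2, Igfbp3, Igfbp4, Igfbp5 and Igfbp7. They were chosen by name, and all 10 were in the table. Their levels were described over all libraries and related to 3 marker genes: Chga (chromogranin A, a protein of neuroendocrine secretory granules), Mki67 (the proliferation antigen Ki-67) and Col1a1 (a chain of type I collagen, made by fibroblasts). The libraries came from F2 males, bred from C57BL/6J females carrying the TRAMP transgene and WSB/EiJ males, and all are labelled as transgene positive. Each library has its own label, though W7822 and W78022 are alike. Whether every library came from a different mouse is not stated, and the tests treat libraries as independent. TRAMP drives SV40 T antigen from the probasin promoter in prostate epithelium. WSB/EiJ is an inbred strain derived from wild mice. The labels place the libraries in 1 group with no treatment or control, so there was no comparison of conditions. The age, genotype and tumor burden of each mouse were not used here. Where a prostate was small, RNA was taken from the ventral lobe, so libraries can differ in the tissue they hold.

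The IGF ligands are small secreted proteins related to insulin. Binding of IGF1 or IGF2 to the tyrosine kinase receptor encoded by Igf1r activates the PI3K/AKT and MAPK pathways and favours growth and survival. Igf2r encodes a receptor that takes up and degrades IGF2 and also carries lysosomal enzymes, and it has no kinase. Secreted binding proteins hold the ligands in tissue and serum, can limit or prolong their action, and have actions of their own. Igfbp7 is a related protein that binds IGFs weakly. In the prostate, IGF1 is classically made by stroma and acts on epithelium. Igf2 and H19 are neighbours in an imprinted region in which Igf2 is expressed from the paternal and H19 from the maternal copy, and in mice Igf2r is maternally expressed.

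H19 and Igf2, the members with the lowest levels here, each contain a microRNA hairpin. The mature sequences of the annotated microRNAs are shown with the seed, bases 2 to 8, in capitals. They are from RefSeq on GRCm38.p6, and all lie on the minus strand, at chr7:142577112-142577133 and chr7:142577078-142577099 for the miR-675 arms and chr7:142654968-142654989 and chr7:142654932-142654952 for the miR-483 arms. No seed is shared among them. Mature microRNAs were not measured, and the host gene level does not give theirs.
mmu-miR-675-5p (H19): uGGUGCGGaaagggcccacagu
mmu-miR-675-3p (H19): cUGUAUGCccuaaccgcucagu
mmu-miR-483-5p (Igf2): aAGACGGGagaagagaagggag
mmu-miR-483-3p (Igf2): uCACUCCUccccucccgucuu

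Promoter sequence is shown for the ligand Igf1 and for 3 binding proteins, because Igf1, Igfbp4, Igfbp5 and Igfbp7 had the highest correlations with Col1a1 in the larger part of the libraries described below, and Igfbp5 did not rise with it in the smaller part. Each run is 100 bases upstream of a RefSeq start on GRCm38.p6, at chr10:87861011-87861110 on the plus strand for Igf1, chr11:99041144-99041243 on the plus strand for Igfbp4, chr5:77408046-77408145 on the minus strand for Igfbp7 and chr1:72874866-72874965 on the minus strand for Igfbp5. Capitals mark matches on either strand to the TATA box (TATAAA), to the GC box (GGGCGG) or to the CCAAT box, and none of these motifs contains another.
Igf1: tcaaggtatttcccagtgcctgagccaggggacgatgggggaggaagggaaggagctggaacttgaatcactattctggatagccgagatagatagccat
Igfbp4: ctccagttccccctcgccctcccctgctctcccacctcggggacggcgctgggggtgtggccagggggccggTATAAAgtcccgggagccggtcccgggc
Igfbp7: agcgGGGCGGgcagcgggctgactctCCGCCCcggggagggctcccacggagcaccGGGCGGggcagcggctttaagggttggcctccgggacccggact
Igfbp5: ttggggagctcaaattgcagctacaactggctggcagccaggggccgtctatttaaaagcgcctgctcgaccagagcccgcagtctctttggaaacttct

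The 4 promoters did not share a match. In the 250 bases upstream of the start, Igfbp4 held 1 TATAAA, 28 bases before the start, and 22 CpG. Igfbp7 held 4 GGGCGG, at 110, 96, 74 and 44 bases, and 26 CpG with 74% G or C. Igf1 held 1 CCAAT, outside the stretch shown, and 5 CpG, and Igfbp5 held none of the motifs and 10 CpG. Among 32851 RefSeq promoters of the same length, 12.4% held TATAAA, 32.7% GGGCGG and 33.8% CCAAT, and the median promoter had 6 CpG and 52.4% G or C. A match describes letters only and was not tied to binding of a factor.

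Values are in TPM, each transcript's per-length share of its library, a unit that keeps no sequencing depth, so the counting error of a value is unknown. The 20 most abundant genes took 48.9% to 81.8% of a library's TPM, and what they took moved the TPM of all other genes. Many of the results were therefore repeated after median-of-ratios rescaling, which sets the typical gene equal between libraries, with factors of 0.407 to 1.65. The r of Igf2 and H19 with each other and with other members, and of the genes nearest each member, are given on the deposited scale only. On the first principal component, which held 48.7% of the variance, the libraries fell into a larger part of 79 and a smaller part of 36. Mki67 lay between 0.39 and 25.7 TPM in the larger part and between 20 and 144.5 TPM in the smaller part, and Chga between 0.06 and 4.84 TPM and between 0.15 and 479.1 TPM. The parts were defined from the data, so relations were computed inside each, and the difference between the parts was not tested. Over all libraries together, 7 of 8 luminal prostate markers reached 1 TPM in at least 50% of libraries, against 2 of 10 neuroendocrine markers. This count is weighted to the larger part. By a mean of at least 1 TPM within a part, 2 of 10 neuroendocrine markers passed in the larger part and 10 in the smaller, and 8 and 7 of the luminal markers. In bulk tissue, fewer cells of a type and less RNA per cell cannot be told apart.

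Inside the smaller part, 4 libraries (W1118, W1915, W1050 and W1790) had Chga of only 0.15 to 2.55 TPM, while the other 32 had 21.2 TPM or more. These 4 had high values of several members. Igf1 was 43.6, 28.01, 43.2 and 76.5 TPM in that order, Igfbp4 was 90.6, 114.1, 144.5 and 209.9 TPM, and Igfbp3 was 90.6, 61.5, 134.6 and 50 TPM. Their Igf1r was only 4.06, 2.83, 4.07 and 3.19 TPM. Their Col1a1 was 294.3, 112.02, 177.7 and 308.3 TPM and their Mki67 54.7 to 74.1 TPM. Relations of the members in the smaller part are given with and without them.

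The ligands were among the members with the lowest levels. Igf1 (chromosome 10, 87858265 to 87937042, GRCm38) ranged from 0.28 TPM in W992 to 76.5 TPM in W1790, with a median of 3.18 TPM and quartiles of 1.90 and 5.73 TPM, and all but 7 libraries were at 1 TPM or more. The next highest, W4548, was at 69.4 TPM. Igf2 (chromosome 7, 142650766 to 142666816) ranged from 0.01 to 4.30 TPM with a median of 0.27 TPM. Only 10 libraries reached 1 TPM of Igf2, and the highest, W462, stood above the next at 1.83 TPM. Of the 5723 exonic bases of Igf2, 3596 are shared with the same-strand gene Gm49394 and 98 with the antisense Igf2os in the annotation used for positions. Gm49394 has no entry in the table, and Igf2os had a median of 0.01 TPM. How reads of the shared bases were assigned is not known, and the kit did not mark strand, so the level of Igf2 is uncertain. H19 (chromosome 7, 142575529 to 142578143) ranged from 0.02 to 27.6 TPM with a median of 0.39 TPM, and 32 libraries reached 1 TPM. No member was listed at 0 in any library.

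Of the receptors, Igf2r (chromosome 17, 12682406 to 12769664) ranged from 3.70 TPM in W4072 to 44.6 TPM in W4443, with a median of 22.5 TPM. Igf1r (chromosome 7, 67952827 to 68233668) ranged from 1.26 TPM in W1512 to 26.4 TPM in W4181, with a median of 9.26 TPM. No library stood apart at the top of either, since the next highest were at 41.5 and 26.3 TPM. The ratio of Igf2r to Igf1r had a median of 2.42 and was above 1 in 98 libraries and below 1 in 17. It was lowest at 0.389 in W462 and highest at 9.51 in W1790, so the balance of the receptors ran in both directions.

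The binding proteins held most of the system's transcripts, with a summed level of 21.8 to 730 TPM and a median of 125.7 TPM. Igfbp7 (chromosome 5, 77349240 to 77408041) ranged from 1.97 to 259.2 TPM with a median of 41.3 TPM, and 85 of its exonic bases lie over Polr2b on the other strand (median 15.7 TPM). Igfbp2 (chromosome 1, 72824503 to 72852474) ranged from 1.22 to 560 TPM with a median of 29.9 TPM, and W1182 at 560 TPM and W370 at 304.5 TPM stood above all others. Igfbp5, its neighbour on chromosome 1 (72857932 to 72874884), ranged from 3.01 to 218 TPM with a median of 23.5 TPM. Igfbp4 (chromosome 11, 99041244 to 99054392) ranged from 2.49 to 232 TPM with a median of 11.53 TPM. Igfbp3 (chromosome 11, 7206086 to 7213923), the main carrier of IGF in serum, ranged from 0.33 to 134.6 TPM with a median of 9.43 TPM.

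Which binding protein led differed between libraries. Igfbp7 was the most abundant of the 5 in 58 libraries, Igfbp2 in 32, Igfbp5 in 24, Igfbp4 in 1 and Igfbp3 in 0. Igfbp2 took between 1.73% and 86.2% of the summed level, the highest share being that of W370, and Igfbp5 took between 1.24% and 87.3%, the highest being that of W4202. Igfbp7 varied less, from 1.60% to 52.1% with a median of 34.5%. In W1790 Igfbp4 took 36.2%, its highest share.

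**Figure D1:**
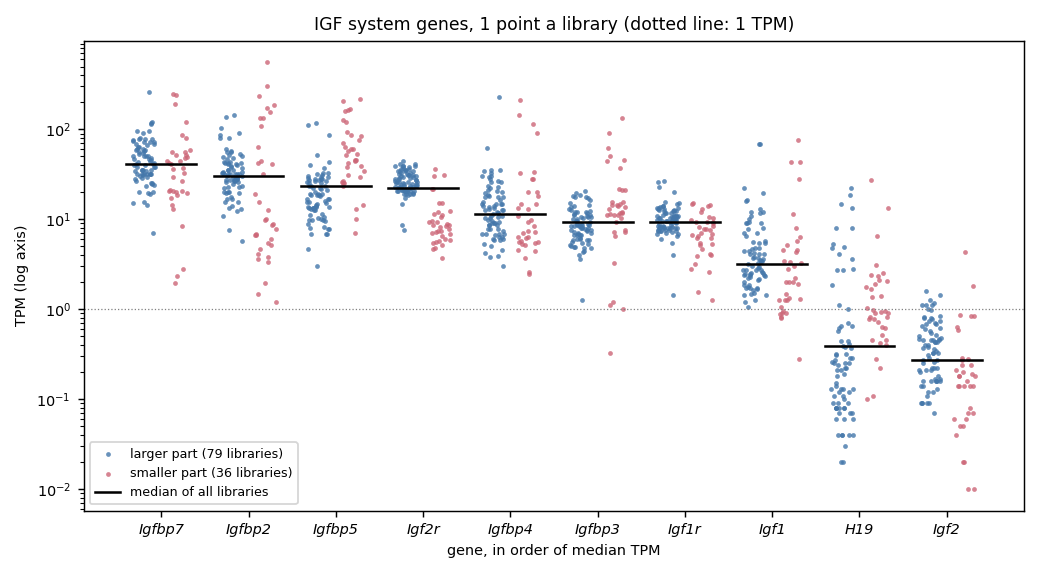
TPM of each member in each library on a log axis, blue for the 79 libraries of the larger part and red for the 36 of the smaller part, with the median of all libraries as a black line and 1 TPM dotted. Medians run from 41.3 TPM for Igfbp7 to 0.27 TPM for Igf2, and Igfbp2 has its highest point at 560 TPM.

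By median TPM the order was Igfbp7, Igfbp2, Igfbp5, Igf2r, Igfbp4, Igfbp3, Igf1r, Igf1, H19 and Igf2, as the strip plot of levels shows. Most neighbours did not differ beyond their spread, since their quartile ranges overlapped. The exceptions were Igf1r over Igf1, where Igf1r was the lower of the pair in 20 libraries, and Igf1 over H19, where Igf1 was the lower in 8. Igfbp5 was above Igf2r in 48 libraries only, although its median was higher. That pair changed places under both other scalings, and Igfbp3 and Igf1r changed places under median-of-ratios rescaling. Leaving out W78022 did not change the order.

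In the larger part, the ligand Igf1 and the binding proteins Igfbp4, Igfbp7 and Igfbp5 rose with Col1a1, which ran from 1.96 to 645.3 TPM over these 79 libraries. Of the 8 members that passed a mean of 1 TPM and had 1 pooled fit, 6 rose and 0 fell at an adjusted p under 0.05 (limma, adjusted over 13413 genes). Of all genes tested, 50.5% rose and 3.9% fell in this fit, so a rise alone does not set the members apart. Igf1, at 1.05 to 69.4 TPM, had Pearson r = 0.756 and a slope of 0.705 ± 0.0683 (SE) log2 units per log2 unit of Col1a1 (limma adjusted p = 2.22e-14). Igfbp4, which is cut by the protease PAPP-A to free IGF, had r = 0.746 and a slope of 0.635 ± 0.0637 (limma adjusted p = 8.69e-14). Igfbp7 had r = 0.712 and a slope of 0.515 ± 0.0573 (limma adjusted p = 4.63e-12), and Igfbp5, which binds extracellular matrix, had r = 0.674 and a slope of 0.527 ± 0.065 (limma adjusted p = 1.59e-10). Their Spearman rho was 0.628, 0.737, 0.74 and 0.615, and the permutation p of each r was 1e-05, the smallest that 100000 permutations can give. Under median-of-ratios rescaling, where 15.2% of all genes rose with Col1a1 and 26.1% fell, these 4 were called as rising again, with r between 0.58 for Igfbp5 and 0.70 for Igf1.

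The library W4548 had the highest Col1a1 at 645.3 TPM and also 69.4 TPM of Igf1, 232 TPM of Igfbp4 and 259.2 TPM of Igfbp7. Without W4548 and W4426, the libraries farthest from the median of Col1a1, r was 0.628 for Igf1, 0.656 for Igfbp4, 0.686 for Igfbp7 and 0.552 for Igfbp5. Igfbp2 rose more weakly, with r = 0.405 (limma adjusted p = 0.000804), and was also called after rescaling with r = 0.295. Igfbp3 rose on the deposited scale with r = 0.343 (limma adjusted p = 0.00527), but with r = 0.163 after rescaling it was not called.

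The receptors did not follow the same course. Igf1r had r = 0.182 with Col1a1 and a limma adjusted p of 0.154, and Igf2r had r = 0.246 and a limma adjusted p of 0.0537. Igf2r had no call on the deposited scale, but under median-of-ratios rescaling it fell with Col1a1, with r = -0.273 (limma adjusted p = 0.042). Igf2, whose mean was under 1 TPM, rose with r = 0.335 in the fit without a filter on low values (limma adjusted p = 0.00919), in which 36.7% of genes rose and 1.52% fell. H19 itself separated into 61 libraries with lower and 18 with higher values, so no pooled r is given. It rose with Col1a1 among the 61, with r = 0.437 in the fit without a filter on low values (limma adjusted p = 0.00338). In the filtered fit of these libraries, which did not hold H19, 62.8% of 13043 genes rose and 0.713% fell. Among the 18, where 3.77% of genes rose and 0.842% fell, r was 0.141 (limma adjusted p = 0.836).

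In the smaller part the binding proteins Igfbp7, Igfbp3 and Igfbp4 again rose with Col1a1, which ran from 0.23 to 308.3 TPM over 36 libraries, and here Igf2r rose too while Igf1r fell. Of 9 members tested, 7 rose and 1 fell (limma, adjusted over 15511 genes), against 40.4% and 18.1% of all genes. Igfbp7 tracked Col1a1 most closely, with r = 0.938, rho = 0.935 and a slope of 0.701 ± 0.0434 (limma adjusted p = 2.9e-15). Igfbp3 had r = 0.825 and a slope of 0.609 ± 0.0689, Igfbp4 r = 0.786 and 0.582 ± 0.0755, Igf2r r = 0.76 and 0.277 ± 0.0399, and Igf1 r = 0.746 and 0.537 ± 0.0791. The largest limma adjusted p among these 4 was 1e-06, that of Igf1. H19 had r = 0.589 (limma adjusted p = 0.000423) and Igfbp2 r = 0.394 (limma adjusted p = 0.0243). Igf1r fell, with r = -0.527 (limma adjusted p = 0.00203). Igfbp5 had r = -0.303 and was not called (limma adjusted p = 0.0944), though after rescaling it was, at r = -0.39, in a fit where 30.5% of genes rose and 27.5% fell.

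Without the 4 libraries of low Chga, 5 members rose and 0 fell, against 17.1% and 4.09% of all genes. Igfbp7 then had r = 0.902 (limma adjusted p = 1.23e-10), Igfbp3 0.742, Igfbp4 0.656, Igf2r 0.587 and Igf1 0.564 (limma adjusted p = 0.00634). H19 (r = 0.207, limma adjusted p = 0.416), Igfbp2 (r = 0.232, limma adjusted p = 0.318) and Igf1r (r = -0.405, limma adjusted p = 0.0667) were not called among these 32. The slope of H19 went from 0.287 ± 0.0657 to 0.0589 ± 0.0517 and that of Igfbp2 from 0.443 ± 0.169 to 0.298 ± 0.216. For Igf1r the slope was about as large, at -0.188 ± 0.0506 with the 4 libraries and -0.165 ± 0.0658 without them.

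**Figure D2:**
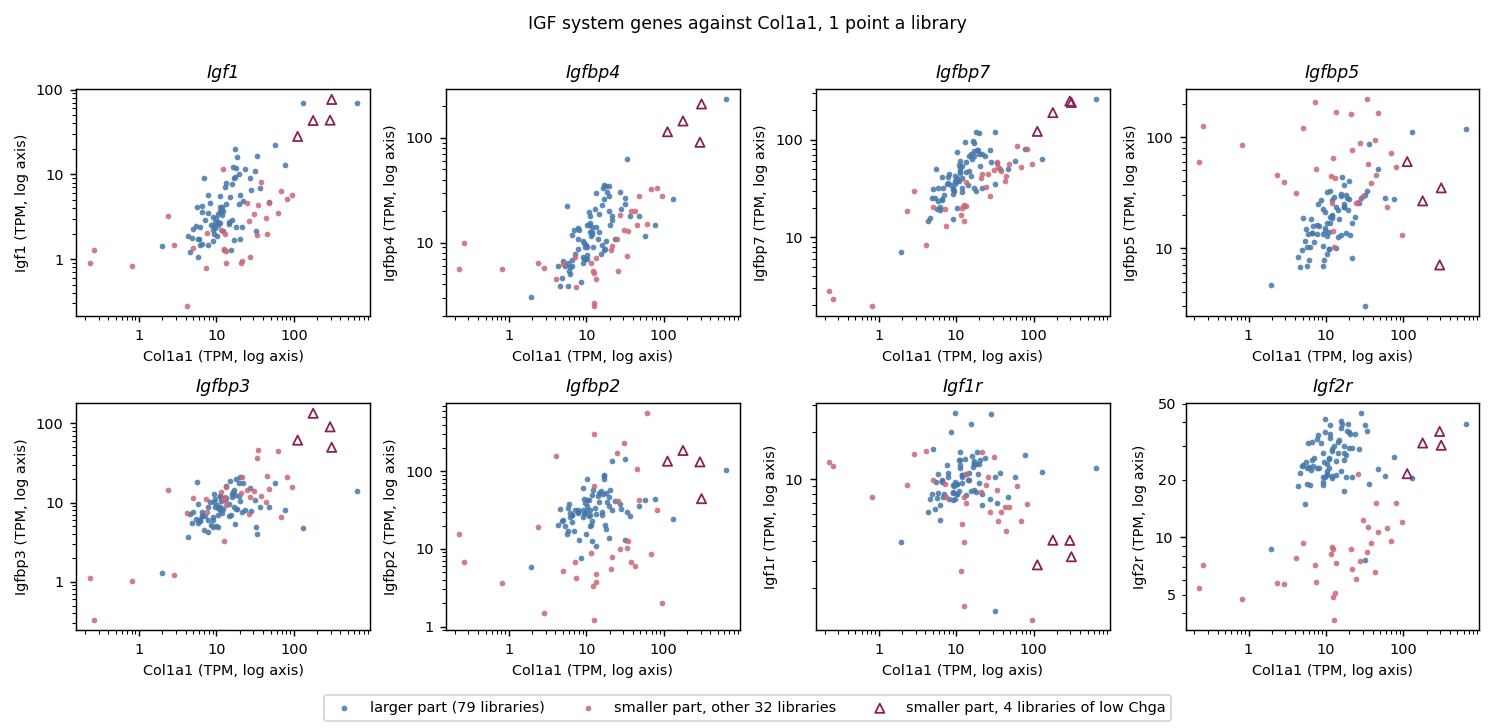
TPM of 8 members against TPM of Col1a1, both on log axes, 1 point per library, blue for the 79 libraries of the larger part, red for the 36 of the smaller part and triangles for its 4 libraries of low Chga. Igf1, Igfbp4 and Igfbp7 rise with Col1a1 in both colours (r from 0.712 to 0.938), Igfbp5 in blue (r = 0.674) but not in red (r = -0.303).

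Markers of other cells moved with Col1a1 as well. In the larger part 5 of 5 further fibroblast markers, 5 of 6 endothelial and 5 of 5 leukocyte markers rose with it and 5 of 8 luminal markers fell, where 50.5% of all genes rose and 3.9% fell. There 2 of 2 tested neuroendocrine, 3 of 6 proliferation and 2 of 6 smooth muscle markers rose as well, and 0 of these fell. In the other part, where 40.4% of genes rose and 18.1% fell, 4 of 5 fibroblast, 5 of 5 endothelial, 5 of 5 leukocyte, 5 of 6 smooth muscle and 3 of 7 luminal markers rose, 1 luminal marker fell, and of 10 neuroendocrine markers 6 fell and 1 rose. Without the 4 libraries of low Chga none of the 10 neuroendocrine markers was called, while 4 fibroblast, 4 endothelial, 5 leukocyte, 6 smooth muscle and 3 luminal markers rose. Over all libraries the summed fibroblast markers ran from 10.6 to 5669 TPM, the endothelial from 4.34 to 116.3 TPM and the leukocyte from 8.99 to 390.5 TPM. None of these lists had a marker with a median of 0. Their part in the relations of Igf1 and the binding proteins was not tested.

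Both receptors, Igfbp7 and Igfbp5 rose with Mki67 in the larger part on the deposited scale, and none of these rises was called after median-of-ratios rescaling. Igf2r (r = 0.517, limma adjusted p = 2.6e-06), Igf1r (r = 0.453, limma adjusted p = 4.64e-05), Igfbp7 (r = 0.408, limma adjusted p = 0.000265) and Igfbp5 (r = 0.237, limma adjusted p = 0.0414) rose, making 4 of 8 members with 0 falling, while 76.4% of all 13413 genes rose and 1.44% fell. The median r of all genes with Mki67 was 0.452, and the rescaling factor itself had r = 0.614 with Mki67. Under median-of-ratios rescaling the median r of all genes was -0.00962, with 23% rising and 19.8% falling. With it, r was -0.118 for Igf2r, -0.0436 for Igf1r, 0.0637 for Igfbp7 and -0.13 for Igfbp5. Igfbp3, with r = 0.0919 on the deposited scale, instead fell after rescaling, with r = -0.359 (limma adjusted p = 0.00388), and with r = -0.263 when the 20 most abundant genes were left out. Igf1 had r = 0.212, Igfbp2 0.209 and Igfbp4 0.167, none of them called.

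In the smaller part Mki67 ran from 20 to 144.5 TPM, and Igfbp2 fell with it while Igf1r and Igfbp5 rose. These were the 3 calls among 9 members, where 27.3% of all 15511 genes rose and 18.2% fell. Neither direction was more frequent among the members than among all genes, so a call alone does not set them apart. Igfbp2, at 1.22 to 560 TPM, had r = -0.556, rho = -0.514 and a slope of -1.99 ± 0.488 log2 units per log2 unit of Mki67 (limma adjusted p = 0.00129). Igf1r had r = 0.424 (limma adjusted p = 0.0215) and Igfbp5 r = 0.423 (limma adjusted p = 0.0205). All 3 were called in the same direction after rescaling (r = -0.68, 0.44 and 0.41) and without the 4 libraries of low Chga (r = -0.542, 0.41 and 0.399), where 30% of genes rose and 16.7% fell. Igfbp7 had r = -0.353 and was not called (limma adjusted p = 0.0587). After rescaling, which had 27.6% of genes rising and 33.7% falling, Igfbp7, Igf2r, Igfbp3, Igfbp4 and Igf1 were called as falling too, with r of -0.577, -0.588, -0.495, -0.448 and -0.404. Markers of other cells fell with Mki67 beside Igfbp2: 5 of 7 luminal (median r = -0.502), 6 of 6 smooth muscle, 5 of 5 leukocyte, 4 of 6 fibroblast and 3 of 5 endothelial markers, and without the 4 libraries 5, 5, 4, 4 and 3 of them. Their part in the fall of Igfbp2 was not tested.

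Chga itself separated in the larger part, so it was used within 72 libraries, where it lay between 0.06 and 0.81 TPM, and 7 with 1.19 to 4.84 TPM. Among the 72, 0 of 8 members were called by limma, as were only 0.113% of all 13277 genes, 15 in number. Chga was under 1 TPM in all 72, with unknown counting error, so the lack of calls does not decide whether members go with it. At an unadjusted p under 0.05 the fit held 1336 genes. The member with the highest r was Igfbp2, at 0.348 (limma adjusted p = 0.332). Among the 7 libraries limma called 0% of 14341 genes, and 337 had an unadjusted p under 0.05.

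In the smaller part, where Chga reached 479.1 TPM, 6 of 9 members fell with it, against 22.3% of all genes falling and 11.4% rising (limma, 15511 genes). Igf1 had r = -0.751 (limma adjusted p = 2.06e-06), H19 -0.673 (7.66e-05), Igfbp4 -0.61 (0.000456), Igf2r -0.566 (0.00169), Igfbp7 -0.459 (0.0141) and Igfbp3 -0.431 (0.0232). These falls rested on the 4 libraries of low Chga. Without them, r was -0.139 for Igf1, 0.00303 for H19, 0.213 for Igfbp4, 0.255 for Igf2r, 0.158 for Igfbp7 and 0.238 for Igfbp3, and limma called none of these 6. Igfbp2 was then the 1 member called. It rose with Chga, with r = 0.616, rho = 0.473 and a slope of 1.29 ± 0.286 (limma adjusted p = 0.00696), where 8.8% of all genes rose and 0.21% fell. With all 36 libraries its r was -0.0477.

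**Figure D3:**
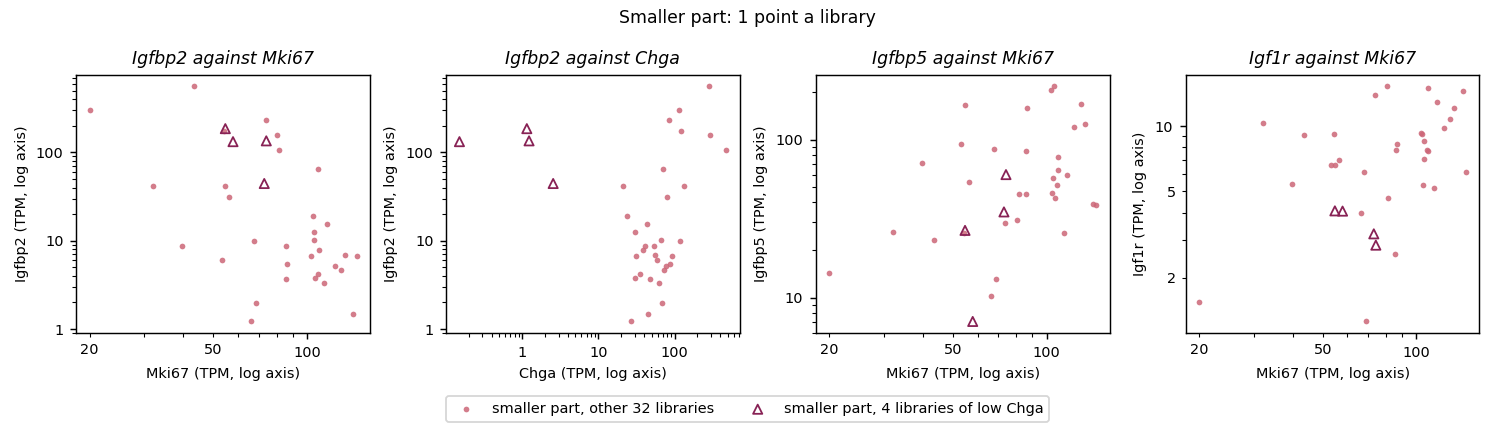
TPM on log axes in the 36 libraries of the smaller part, with triangles for the 4 of low Chga: Igfbp2 against Mki67, Igfbp2 against Chga, Igfbp5 against Mki67 and Igf1r against Mki67. Igfbp2 falls with Mki67 (r = -0.556), and its rise with Chga (r = 0.616) is seen among the 32 circles only.

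**Figure D4:**
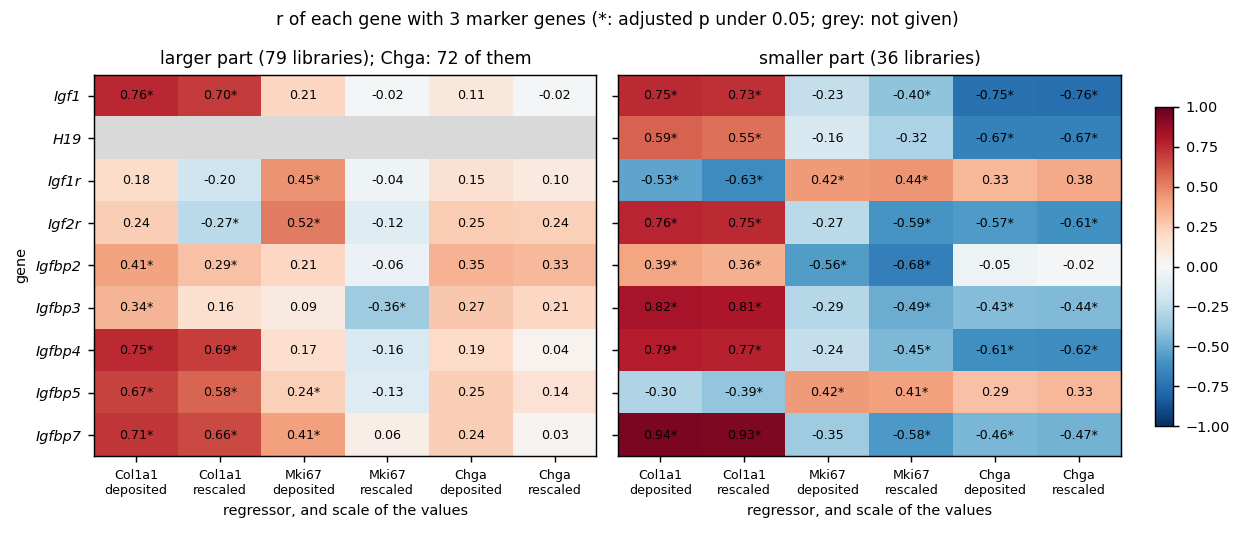
Pearson r of each member with Col1a1, Mki67 and Chga inside each part, on the deposited TPM and after median-of-ratios rescaling, with an asterisk where the limma adjusted p was under 0.05 and grey where no r is given. In the larger part the r of Igf2r with Mki67 goes from 0.517 to -0.118 and that of Igf1 with Col1a1 from 0.756 to 0.70.

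Among themselves the members of the larger part moved together on the deposited scale, with 24 of 28 pairs called in both directions of the limma fit. The share of all genes called was high too, at 92.3% with Igf2r as the regressor, 87.2% with Igf1r, 86.6% with Igfbp7, 77.6% with Igfbp3, 73.8% with Igfbp5, 72.7% with Igfbp4, 62.7% with Igf1 and 50.2% with Igfbp2. Igfbp4 and Igfbp7 had the highest r at 0.83, followed by Igf1 and Igfbp4 at 0.759, Igf1r and Igf2r at 0.73, Igf1 and Igfbp5 at 0.723 and Igfbp3 and Igfbp7 at 0.693. The pairs of Igf1 with Igfbp2, Igf1r with Igfbp2, Igf1r with Igfbp4 and Igfbp2 with Igfbp5 were not called. After rescaling 14 of 28 were called. Igfbp4 and Igfbp7 had r = 0.76 and Igf1 and Igfbp4 0.68, and these were called again, while the receptor pair had r = 0.26 and was not. Igf2r then fell with Igf1 (r = -0.33), Igfbp4 (r = -0.33) and Igfbp7 (r = -0.29), each of which it had risen with on the deposited scale, and Igf1r fell with Igfbp4 (r = -0.36).

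In the smaller part 20 of 36 pairs were called by limma, and only 6 without the 4 libraries of low Chga. The share of all genes called was 62.3% with Igfbp4 as the regressor, 58.8% with Igf2r, 58.3% with Igf1, 55.7% with Igfbp7, 51.2% with H19, 48.2% with Igfbp3, 30.9% with Igfbp2, 28.6% with Igf1r and 4.36% with Igfbp5. Igfbp3 and Igfbp7 had r = 0.861, and 0.79 without the 4. Igf1 and Igfbp4 had r = 0.859, and 0.55 without them. Igf1 and H19, with r = 0.761, had r = 0.15 without them. Igf1r fell with Igf1 (r = -0.51), Igfbp3 (r = -0.434) and Igfbp4 (r = -0.407), and without the 4 libraries r was -0.37, -0.28 and -0.158, none of them called. Igfbp5 was in 0 called pairs on the deposited scale. Its r was negative with the other members except Igf1r (r = 0.432), at -0.414 with Igf1 and -0.345 with Igfbp2, and after rescaling it fell with Igf1 (r = -0.511, limma adjusted p = 0.0219). The 6 pairs called without the 4 libraries were those of Igf1 and of Igf2r with Igfbp4 and with Igfbp7, of Igfbp3 with Igfbp7, and of Igfbp4 with Igfbp7. In those fits the share of all genes called was 3.55% with Igf1, 20.2% with Igf2r, 1.66% with Igfbp3, 18.4% with Igfbp4 and 12.7% with Igfbp7.

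**Figure D5:**
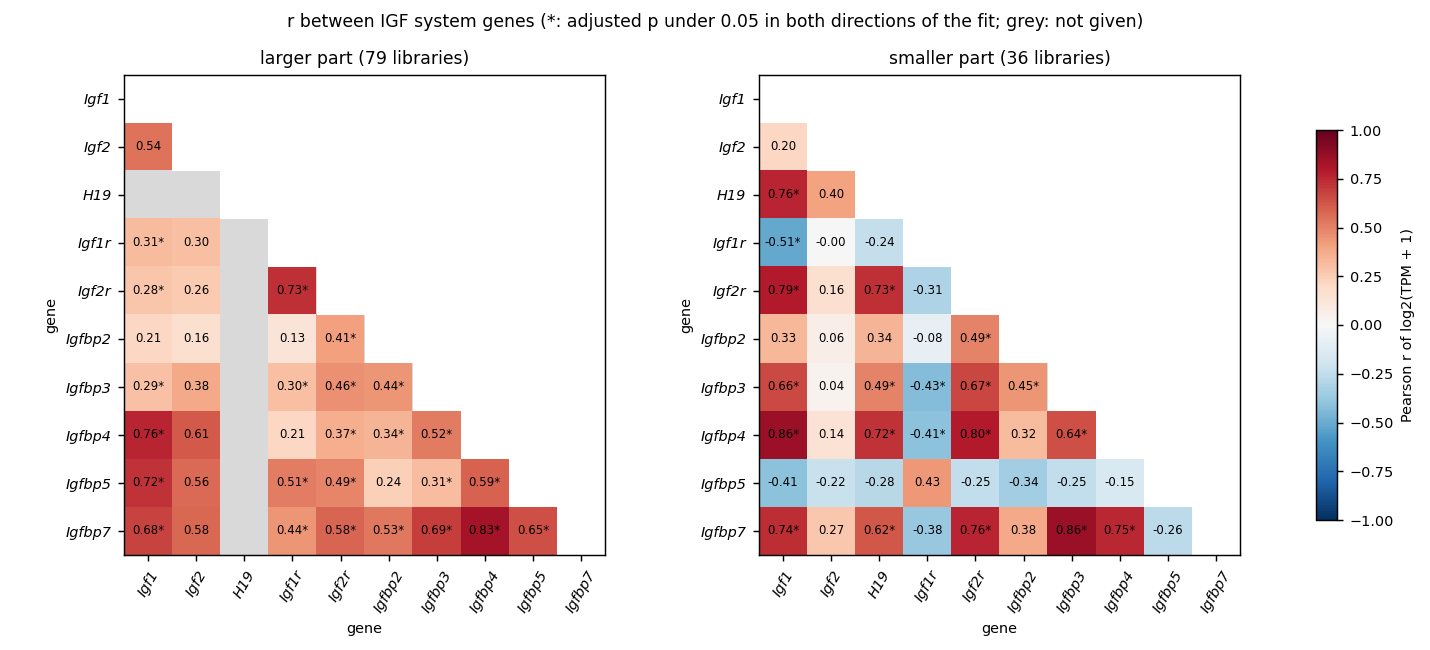
Pearson r between members in the larger and in the smaller part on log2(TPM + 1), with an asterisk where limma called the pair in both directions and grey where no r is given. Igf1, Igfbp4 and Igfbp7 are positive with each other in both parts, while the row of Igf1r is negative with Igf1 (r = -0.51) in the smaller part.

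Igf2 and H19 varied together in the libraries of low H19. Among the 61 libraries of the larger part with lower H19, r was 0.656 and rho 0.613 (permutation p = 1e-05, the smallest possible). It was 0.269 among the 18 with higher H19 and 0.401 in the smaller part, where it was not called (limma adjusted p = 0.869). Without the 4 libraries of low Chga it was 0.413 there, and 0.0286 when W462 and W4356, the farthest in Igf2, were also left out. Among the 61, H19 also had r = 0.698 with Igfbp4, 0.636 with Igf1 and 0.531 with Igfbp7. Igf2 had r = 0.613 with Igfbp4, 0.577 with Igfbp7, 0.563 with Igfbp5 and 0.541 with Igf1 over the 79 libraries of the larger part. Both transcripts are low there, Igf2 at 0.07 to 1.59 TPM, so these values carry an unknown counting error. All r of this paragraph are on the deposited scale, and none is given after rescaling.

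Other imprinted genes moved with Igf2 in the larger part. Of 14 tested from a list of 25, 12 rose with Igf2 (limma), where 46.3% of all genes were called in either direction, and 10 rose after rescaling. The list includes Dcn, which is also a fibroblast marker. Ndn had r = 0.794 (0.715 after rescaling), Rian 0.684 (0.571), Nnat 0.67 (0.555), Meg3 0.663 (0.596) and Snrpn 0.636 (0.518). Ndn encodes necdin, and Rian and Meg3 are maternally expressed noncoding RNAs of 1 cluster on another chromosome. In the smaller part 0 of 21 were called with Igf2, as were 0.0451% of all genes. With H19, 8 of 14 rose among the 61 libraries, where 16.8% of genes were called, and 7 after rescaling. Among the 18 libraries limma called 0% of 14259 genes with H19, and 229 had an unadjusted p under 0.05.

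H19 is known to be abundant in skeletal muscle, and muscle markers were high in some libraries. W4443, the library with the second highest H19, had 22.6 TPM of it and 2138 TPM of summed skeletal muscle markers. The highest H19 was in W1790 of the smaller part, at 27.6 TPM, and the highest muscle sum in W4078, at 2314 TPM, so the highest values lay in different libraries. Among the 18 libraries with higher H19 the 4 muscle markers had r between 0.518 and 0.638 with H19, with 0 of 4 called by limma. Among the 61, Ckm, the muscle creatine kinase, rose with H19 (r = 0.621), whereas Acta1 had r = -0.0854. After rescaling Ckm still rose (r = 0.456, limma adjusted p = 0.00193), and Acta1 was called as falling (r = -0.378, limma adjusted p = 0.0134). Over all libraries the summed muscle markers ran from 0.37 to 2314 TPM, and none had a median of 0. All 4 rose with Igf2 in the larger part, where 46.3% of all genes were called in either direction, and 3 after rescaling. In the smaller part 0 of the 4 muscle markers were called with Igf2 (median r = 0.00316), as were 0.0451% of all genes. With H19 there, 0 of the 4 muscle markers were called (median r = 0.12), against 51.2% of all genes. Their part in the levels of H19 and Igf2 was not tested.

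Airn, the antisense noncoding RNA that begins within Igf2r and silences it on the paternal copy, was looked at after its values were seen. It had a median of 7.69 TPM. Its r with Igf2r in the larger part was 0.639 on the deposited scale and 0.0183 after rescaling (limma adjusted p = 0.912). Since the kit did not mark strand, reads of the pair can be mixed where they overlap.

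The other imprinted genes were also set against the markers. With Col1a1, 10 of 14 rose and 0 fell in the larger part, against 50.5% of all genes rising (6 and 1 after rescaling, against 15.2% rising and 26.1% falling), led by Rian (r = 0.691), Dcn (0.658) and Ndn (0.643). Dcn is also on the list of fibroblast markers, so it is counted in both lists. Among the 36 libraries 2 of 21 rose and 9 fell, against 40.4% and 18.1% of all genes (2 and 14 after rescaling), but without the 4 libraries of low Chga 1 rose and 1 fell. With Mki67, 7 of 14 rose in the larger part and 0 fell, below the 76.4% of all genes that rose, which became 1 and 4 after rescaling. Among the 36, 11 of 21 rose and 2 fell, against 27.3% and 18.2% of all genes, which became 13 and 2 after rescaling and 12 and 1 without the 4 libraries. The difference between the parts was not tested.

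The rest of the pathway was taken as a list of 35 genes, from the insulin receptor and its substrates to the kinases below them. With Col1a1, 13 of 23 tested rose and 2 fell in the larger part (limma), where 50.5% of all genes rose and 3.9% fell, with a median r of 0.334 against 0.251 for all genes, and 6 rose and 6 fell after rescaling. Htra1, a secreted protease that cuts IGF binding proteins, had r = 0.731 (0.68 after rescaling), Grb10, an adaptor that dampens receptor signalling, 0.723 (0.65), Pappa2, a protease of Igfbp5 and Igfbp3, 0.61 (0.49) and the binding protein Igfbp6 0.557 (0.42). Among the 36 libraries 11 of 26 rose and 2 fell, against 40.4% and 18.1% of all genes, with Igfbp6 at r = 0.741 and Shc1 at 0.732, and 2 of 24 rose and 0 fell without the 4 libraries. With Mki67, 16 of 23 rose and 1 fell in the larger part, no more than the 76.4% of all genes that rose, with a median r of 0.378 against 0.452 for all genes. The kinases Akt1 and Akt2 had r = 0.65 and 0.613, but after rescaling 2 rose and 6 fell. Among the 36 libraries 6 of 26 rose and 1 fell with Mki67, where 27.3% and 18.2% of all genes did, 6 of 24 rose and 7 fell after rescaling, and 6 of 24 rose and 2 fell without the 4 libraries. With Chga, 0 of 23 were called among the 72 libraries of the larger part, and in the smaller part 3 of 26 rose and 9 fell, against 11.4% and 22.3% of all genes, or 3 of 24 and 0 without the 4 libraries.

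The list genes with a median of at least 10 TPM lay above both ligands, but others did not, such as Irs2 at 2.18 TPM and Foxo1 at 0.93 TPM. Median TPM over all libraries was 32.2 for Akt1, 24.1 for Akt2, 21.7 for Shc1, 18.5 for Pik3r1, 16.7 for Igfbp6, 13.2 for Pik3r2 and 12.3 for Pik3ca. The insulin genes Ins1 and Ins2 reached 1 TPM in 0 libraries. Igfbp1, the binding protein of liver and kidney, was listed at 0 in 83 libraries but at 41.8 TPM in W1118, which also held 249.2 TPM of Igfbp7. Among the imprinted genes, Gnas had a median of 192.1 TPM and Dcn of 97.99 TPM.

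For each member, the 3 genes with the highest r over the larger part were taken, with the r of the same genes in the smaller part and in its 32 libraries without those of low Chga, all as descriptions over libraries that share the scale of the table. Igfbp4 was closest to Rab3il1 (0.926, with 0.818 in the smaller part and 0.748 in the 32), Tgfbi (0.925, 0.893, 0.789) and the macrophage mannose receptor Mrc1 (0.912, 0.776, 0.745), all high in both parts. Igfbp7 was closest to Acvrl1, an endothelial receptor of the TGF-beta family (0.941, 0.845, 0.814), Fcgrt (0.94, 0.752, 0.646) and Hip1 (0.933, -0.00661, -0.0048). Igf1 was closest to Olfml2b (0.906, 0.779, 0.447), Col6a5, a collagen (0.905, 0.36, 0.534), and Sulf2 (0.896, 0.0956, -0.128). Igf2 was closest to Gucy1a1 (0.875, 0.0622, -0.0301), Chst15 (0.862, 0.315, 0.26) and Aatk (0.858, -0.301, -0.222). Only the r of the first part was used for the choice, so the others show which likeness was also found in other libraries.

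Of the receptors, Igf2r was closest to Specc1l (0.951, with 0.18 in the smaller part and 0.228 in the 32), Dync1h1, the heavy chain of cytoplasmic dynein (0.948, 0.366, 0.409), and Rnf6 (0.943, 0.791, 0.618), and Igf1r to Abhd2 (0.863, -0.0724, 0.139), Msl2 (0.858, 0.659, 0.658) and Agap1 (0.855, 0.572, 0.494). Igfbp3 was closest to Crim1 (0.807, 0.609, 0.526), Rab34 (0.785, -0.126, 0.196) and the water channel Aqp1 (0.77, 0.803, 0.766), and Igfbp5 to Jcad (0.852, -0.0406, 0.128), St3gal2 (0.83, 0.498, 0.421) and Mxra8 (0.829, -0.284, -0.113). For Igfbp2 even the closest gene, Ankrd1, had r = 0.722 (0.413, 0.25), followed by Fstl3 (0.707, 0.464, 0.337) and Wfdc1 (0.674, 0.00409, -0.00916). For H19 r is given within its 61 and 18 libraries, where Mlf1 had 0.122 and 0.808. Neb, the giant thin-filament protein of skeletal muscle, had 0.617 and 0.682, and Tnni2, a troponin of fast muscle, 0.466 and 0.636. These genes were chosen by r over all 79 libraries, which hold the 61 and the 18, so these values are no separate check. In the smaller part and in the 32, r was 0.167 and -0.292 for Mlf1, -0.0718 and 0.308 for Neb, and 0.25 and 0.369 for Tnni2.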

How the data were processed

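Prostate RNA of transgene-positive F2 males, 1 library per label, was depleted of ribosomal RNA and made into libraries with a kit that does not mark strand. The submitters' processing notes name CASAVA 1.8.2, Bowtie2 2.2.5, RSEM 1.2.20 and GRCm38, and the paper's methods describe an allele-specific transcriptome made with Seqnature. The authors deposited TPM per gene, which keeps no depth, so no count model, interval or floor was used. The annotation behind the table is not given in the sources used here, and positions are from GENCODE M21, in which 45136 of 45699 genes were found.

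The members, lists and tests were chosen with earlier results of these data known. Libraries counted as separate where the BIC fell by over 10 with 2 normal components in place of 1, with Ashman D above 2 and no part under 6 libraries. Where a marker or member separated inside a part, it was used inside its sub-parts. Each gene with a mean of at least 1 TPM in a part was fitted as log2(TPM + 1) on that of Chga, Mki67, Col1a1 or a member with limma 3.58.1 (R 4.3.3, empirical Bayes with trend, two-sided, Benjamini-Hochberg over all genes tested, called under 0.05). A slope understates the change of low genes because of the pseudocount. Pearson's r and Spearman's rho had 100000 permutations, over 30 pairs of a member with a marker and 45 pairs of members. A pair of members was called where both directions of the fit passed. The libraries were not narrowed to the smaller number the paper's text gives, since the libraries behind it are not named there. The genes named are the members, the 3 markers, the 3 genes nearest each member, and from each list those with a median of at least 10 TPM or the largest r. Some genes that meet this rule are left out here. Airn, Igfbp1, Irs2, Foxo1, the insulin genes, Igfbp6, Shc1, Nnat, Meg3, Snrpn and the muscle genes were added to these with their values in view. Alternatives were a pseudocount of 0.1, median-of-ratios factors, TPM set anew without the 20 most abundant genes, no filter, ranks, leaving out the 2 libraries farthest from the median of the regressor, the other markers as covariates, and, chosen after seeing the data, leaving out 4 libraries of the smaller part. Simulated data had a random normal regressor, not a marker gene, and independent noise for each gene. Slopes of 1 SD were recovered for 100 of 100 genes in the larger part (13414 genes) and 97 of 100 in the smaller (15512 genes). Those of 0.5 SD were recovered for 73 and 14 of 100. Such data lack the skew of Col1a1 and the shared scale of the libraries, so the rates do not describe fits on the markers. Sequences were read from RefSeq tables on GRCm38.p6, with an entry for 9 of the 10 members among the promoters. Scripts ran in Python 3.11.15, with scipy 1.17.1 for correlations, scikit-learn 1.9.0 for mixtures, pandas 2.3.3 and numpy 2.4.6 for tables, and matplotlib 3.10.9 for figures.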

Additional observations from a re-analysis of the deposited data

How the results depend on the processing

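Over the relations of members with Chga, Mki67 and Col1a1, 384 alternatives were run, and 317 kept the side of the threshold, 32 lost a call, 23 gained one and 12 turned the direction of a called value. In 23 of the 317 the sign changed with no call under either setting. No paired analysis was possible because GEO's labels give a single group. Without the 20 most abundant genes the median TPM was 0.79 for Igf2, 28.5 for Igf1r and for Igfbp3, 71.8 for Igf2r, 65.2 for Igfbp5 and 125.4 for Igfbp7. With Mki67 in the larger part 4 members were called, against 1 under median-of-ratios scaling, where r was -0.0436 for Igf1r, -0.118 for Igf2r, -0.359 for Igfbp3 and -0.13 for Igfbp5, and 2 without the 20 genes, where Igfbp3 had r = -0.263. Igf2r had r = -0.273 with Col1a1 there under median-of-ratios scaling. With Mki67 in the smaller part 3 were called, against 8 under median-of-ratios scaling, 7 without the 20 genes, 6 on ranks and 7 without the 2 farthest libraries. With Chga in the smaller part 6 were called, against 0 on ranks, 2 without the 2 farthest libraries and 1 without the 4 libraries of low Chga, where r was 0.00303 for H19, 0.255 for Igf2r, 0.616 for Igfbp2, 0.238 for Igfbp3, 0.213 for Igfbp4 and 0.158 for Igfbp7. With Col1a1 in the smaller part 8 were called, and 5 without the 4. Of member pairs, 24 became 14 in the larger part under median-of-ratios scaling, and 20 became 1 in the smaller part with the markers as covariates and 6 without the 4 libraries. Apart from the settings that use fewer libraries, the cause was not tested. The 79 and 36 libraries were the same under both other scalings. Igf2 gave no value under the filter on low values, and the 7 libraries of higher Chga none with covariates. As TPM keeps no depth, the counting error of low members such as Igf2 and H19 is unknown.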
